A study of Mus musculus with 16 samples.

Results

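Wee1, Cdkn1a, Usp2 and E2f8 are 4 genes of the cell cycle and of protein turnover that have been tied to the circadian clock, and they were followed here across the hearts of 2 genotypes on 2 diets. They are 4 of the 22180 genes that could be read from probe sets with a single gene symbol, and each was read by 1 probe set. The genes were picked by name, with earlier results of these same hearts known in all 4 groups, so their group values are given as a description and without a test.

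The groups were Clock mice on a high-fat diet (Clock HFD), wild-type mice on the high-fat diet (WT HFD), Clock mice on standard chow (Clock SC) and wild-type mice on standard chow (WT SC), with 4 hearts in each group and 1 Affymetrix array per heart. All 16 mice had the C57Bl/6J background, and Clock mice were homozygous for the delta 19 allele, labelled as transgenic. Each mouse ate its diet for 24 weeks and was 32 weeks old when the myocardium was collected, 7 hours after lights on. The allele is carried in every cell, so differences need not arise in the heart, and a single time of day cannot tell a shifted rhythm from a flattened one.

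CLOCK pairs with BMAL1, the product of Arntl, to switch on genes that carry E-box elements, and the delta 19 protein keeps its partner but is a poor activator. The products of these genes include the PER and CRY proteins, which shut the pair off, and the REV-ERB repressors, which act on genes with RORE elements such as Arntl. Cell cycle genes are reached by both arms: Wee1 is a known E-box target, and Cdkn1a is known in mouse liver as a gene that REV-ERB represses. Adult heart muscle cells divide rarely.

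In the deposited table each probe set has been centred, so that a value is its distance on a log scale from the middle of the 16 hearts. Base 2 and a positive sign for higher expression were assumed, since the sources used here state neither. A value of 0 is therefore the middle heart and not an absent transcript, and neither the abundance of a gene nor whether it lay above background can be read. For the same reason the labelled tissue could not be checked against the levels of heart muscle markers. The 10 heart muscle markers of a fixed list averaged between -0.07 and 0.05 in each of the 16 hearts. None passed adjusted p under 0.05 in limma fits between genotypes or diets, where 0.0902% to 1.90% of all genes did. At unadjusted p under 0.05 there were 1 or 2 of the 10 in each comparison, beside 8.42% to 13.5% of all genes. In bulk tissue, fewer cells of a type and less RNA per cell cannot be told apart.

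The genotype was checked on Clock and on Dbp, a transcription factor gene driven by CLOCK. Dbp lay between -0.52 and -0.37 in Clock HFD hearts, against 1.86 to 2.45 in WT HFD hearts, and between -0.62 and -0.37 in Clock SC hearts, against 0.37 to 2.29 in WT SC hearts. Every Clock heart was thus below every WT heart. One WT chow heart, replicate 4, stood apart with Dbp at 0.37, where the other three WT chow hearts had 1.71, 1.89 and 2.29. The Clock transcript itself was higher by 0.42 ± 0.08 in Clock HFD than in WT HFD hearts (SE of the limma fit, n = 4 each, adjusted p = 0.00965) and did not pass on chow (0.17 ± 0.08, adjusted p = 0.529). Where on the transcript this probe set lies was not known here, so Clock is a poor check of the labels.

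Promoters of the genes were read from RefSeq (build GRCm38.p6), in windows of 250 bases before to 50 after a start site, and 3 of the 4 genes had an entry, with 4 windows in all. They are shown because Usp2 and Cdkn1a differed between genotypes in opposite directions. The motifs, 5 in all, were searched on both strands and set in capitals where found: the E-box CACGTG, the D-box TTATGTAA that DBP binds, the RORE core TAGGTCA, the paired p53 cores (CATG and again CATG with 6 bases between) and the E2F core TTGGCGC. The windows are those of Usp2 (chr9:44084670-44084969, plus strand), Cdkn1a upstream start (chr17:29090729-29091028, plus strand), Cdkn1a downstream start (chr17:29093519-29093818, plus strand) and E2f8 (chr7:48881547-48881846, minus strand).
Usp2: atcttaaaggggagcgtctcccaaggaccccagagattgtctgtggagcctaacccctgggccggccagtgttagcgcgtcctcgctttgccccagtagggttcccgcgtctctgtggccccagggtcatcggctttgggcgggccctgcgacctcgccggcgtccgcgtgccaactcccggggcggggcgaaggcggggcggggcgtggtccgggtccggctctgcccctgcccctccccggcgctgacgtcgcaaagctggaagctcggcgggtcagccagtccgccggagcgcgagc
Cdkn1a upstream start: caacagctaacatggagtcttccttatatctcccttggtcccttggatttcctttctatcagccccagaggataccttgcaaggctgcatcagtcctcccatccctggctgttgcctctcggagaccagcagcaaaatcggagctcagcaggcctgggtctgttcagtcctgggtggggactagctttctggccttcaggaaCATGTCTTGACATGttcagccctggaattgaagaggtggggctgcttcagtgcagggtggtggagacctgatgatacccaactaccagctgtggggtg
Cdkn1a downstream start: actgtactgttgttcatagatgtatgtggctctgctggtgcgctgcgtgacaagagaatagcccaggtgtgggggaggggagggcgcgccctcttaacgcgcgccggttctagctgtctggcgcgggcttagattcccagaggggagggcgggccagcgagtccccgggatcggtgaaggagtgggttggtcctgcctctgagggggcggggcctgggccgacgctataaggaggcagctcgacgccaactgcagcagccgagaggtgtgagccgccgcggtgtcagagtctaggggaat
E2f8: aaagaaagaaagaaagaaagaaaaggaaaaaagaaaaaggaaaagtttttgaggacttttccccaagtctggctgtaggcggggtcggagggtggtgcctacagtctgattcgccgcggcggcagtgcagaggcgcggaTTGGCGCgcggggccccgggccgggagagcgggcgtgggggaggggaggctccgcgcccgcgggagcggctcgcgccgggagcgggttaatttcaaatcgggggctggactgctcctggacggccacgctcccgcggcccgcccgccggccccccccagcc
The letters of the E-box, held by 7.15% of all 32851 windows, of the D-box (0.938%) and of the RORE core (2.61%) are not in these 4 windows. The paired p53 cores, held by 0.712% of windows, run from position -48 to -35 relative to the upstream start of Cdkn1a. The E2F core, held by 2.45% of windows, runs from position -111 to -105 relative to the start of E2f8. A match is a run of letters and not a shown binding site, and elements outside these short windows were not searched.

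Wee1 encodes the kinase that puts an inhibitory phosphate on the mitotic kinase CDK1 and so holds cells before mitosis. Its values were 0.05, -0.26, 0.04 and -0.20 in the 4 Clock HFD hearts, against 0.66, 0.84, 1.20 and 1.14 in the 4 WT HFD hearts. On chow they were -0.51, -0.10, -0.25 and -0.11 in Clock hearts, against -0.08, 0.18, 0.62 and -0.04 in WT hearts. The WT HFD hearts were above all the others, and on chow the 2 genotypes lay next to each other, with a gap of 0.02 between the highest Clock and the lowest WT heart.

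The order of the Wee1 group means ran from WT HFD (0.96 ± 0.25, SD, n = 4) through WT SC (0.17 ± 0.32) and Clock HFD (-0.09 ± 0.16) to Clock SC (-0.24 ± 0.19). WT HFD stood clear of its neighbour in this order by a gap of 0.04 between hearts, while WT SC and Clock HFD overlapped, as did Clock HFD and Clock SC. Wee1 was lower in Clock than in WT hearts by 1.05 on HFD (log2 difference -1.05, 95% interval -1.37 to -0.73, 2.07-fold) and by 0.41 on chow (-0.41, -0.73 to -0.10, 1.33-fold). The chow value rested in part on 1 heart and was -0.26 without WT SC replicate 3. The high-fat diet went with more Wee1 in WT hearts (0.79 ± 0.15, SE of the fit) and with a difference of 0.15 ± 0.15 in Clock hearts, where the 95% interval of -0.17 to 0.47 spans 0. The genotype difference on HFD minus that on chow was -0.64 (95% interval -1.09 to -0.19).

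Cdkn1a encodes p21, which inhibits the cyclin-dependent kinases and is induced by p53, by glucocorticoids and by FOXO factors. Its values were 0.43, 0.47, 0.52 and 0.16 in Clock HFD hearts, against -1.20, -1.42, -1.04 and -1.80 in WT HFD hearts. On chow they were -0.10, 0.31, 0.00 and 1.16 in Clock hearts, against -0.17, 0.00, -0.44 and 0.34 in WT hearts. The WT HFD hearts were the lowest of all 16 by a wide margin, the chow groups overlapped, and Clock SC replicate 4 was the highest heart of the study.

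The group means of Cdkn1a ran from Clock HFD (0.40 ± 0.16, SD, n = 4) through Clock SC (0.34 ± 0.57) and WT SC (-0.07 ± 0.33) to WT HFD (-1.36 ± 0.33), and only WT HFD was clear of its neighbour. In Clock hearts Cdkn1a exceeded WT hearts by 1.76 on HFD (95% interval 1.27 to 2.25, 3.38-fold) and by 0.41 on chow (-0.08 to 0.90), and the chow value was 0.14 without Clock SC replicate 4. The high-fat diet went with less Cdkn1a in WT hearts (-1.30 ± 0.23, 2.46-fold lower) and with a difference of 0.05 ± 0.23 in Clock hearts, which was 0.33 without Clock SC replicate 4. The genotype difference on HFD exceeded that on chow by 1.35 (95% interval 0.65 to 2.04). Repeating a quantile normalization on the deposited values left the signs and reduced the genotype difference on HFD to 1.41 and the diet difference in WT hearts to -0.88.

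Usp2 encodes a ubiquitin-specific protease that spares proteins from degradation, cyclin D1, MDM2 and clock proteins among them, and its transcript cycles in many tissues. Its values were -0.36, -0.09, -0.03 and -0.01 in Clock HFD hearts, against 0.57, 0.79, 0.91 and 0.79 in WT HFD hearts. On chow they were -0.21, -0.17, -0.36 and -0.24 in Clock hearts, against 0.49, 0.56, 0.76 and 0.01 in WT hearts. All 8 Clock hearts were below all 8 WT hearts, and WT SC replicate 4, the heart with little Dbp, lay just above the Clock hearts.

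The group means of Usp2 ran from WT HFD (0.77 ± 0.14, SD, n = 4) through WT SC (0.46 ± 0.32) and Clock HFD (-0.12 ± 0.16) to Clock SC (-0.25 ± 0.08). The 2 WT groups overlapped and so did the 2 Clock groups. Usp2 was lower in Clock than in WT hearts by 0.89 on HFD (log2 difference -0.89, 95% interval -1.15 to -0.63, 1.85-fold) and by 0.70 on chow (-0.70, -0.97 to -0.44, 1.63-fold), and the 2 values differed by -0.19 with an interval of -0.56 to 0.18. Between diets it differed by 0.12 ± 0.12 in Clock hearts and by 0.31 ± 0.12 in WT hearts, where 0.16 was left without WT SC replicate 4.

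E2f8 encodes an atypical E2F factor that represses E2F target genes and is made mainly in cycling cells. Its values were -0.07, -0.07, -0.02 and -0.05 in Clock HFD hearts, against -0.06, 0.21, -0.03 and -0.04 in WT HFD hearts. On chow they were 0.03, 0.05, 0.11 and 0.01 in Clock hearts, against 0.07, 0.08, -0.01 and 0.02 in WT hearts. The genotypes overlapped on both diets, and the one heart away from the rest was WT HFD replicate 2.

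The label of a clock-linked gene was thus not borne out by E2f8 at this hour. Its whole range over 16 hearts was 0.28, and 25.5% of all genes had a smaller range, whereas Cdkn1a spanned 2.96, Wee1 1.71 and Usp2 1.28, wider than 99.9%, 99.7% and 99.4% of genes. The 4 genes were chosen with results of these hearts known, so these ranks are a description and do not show how unusual the genes are. The genotype difference of E2f8 was -0.07 on HFD (95% interval -0.18 to 0.04) and 0.01 on chow (-0.10 to 0.12). The HFD value was -0.00593 without WT HFD replicate 2. Since background cannot be read, a transcript too dim to follow would look the same. In Clock hearts the 4 HFD values all lay below the 4 chow values, by a gap of 0.03 and with a mean difference of -0.10 ± 0.05.

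**Figure D1:**
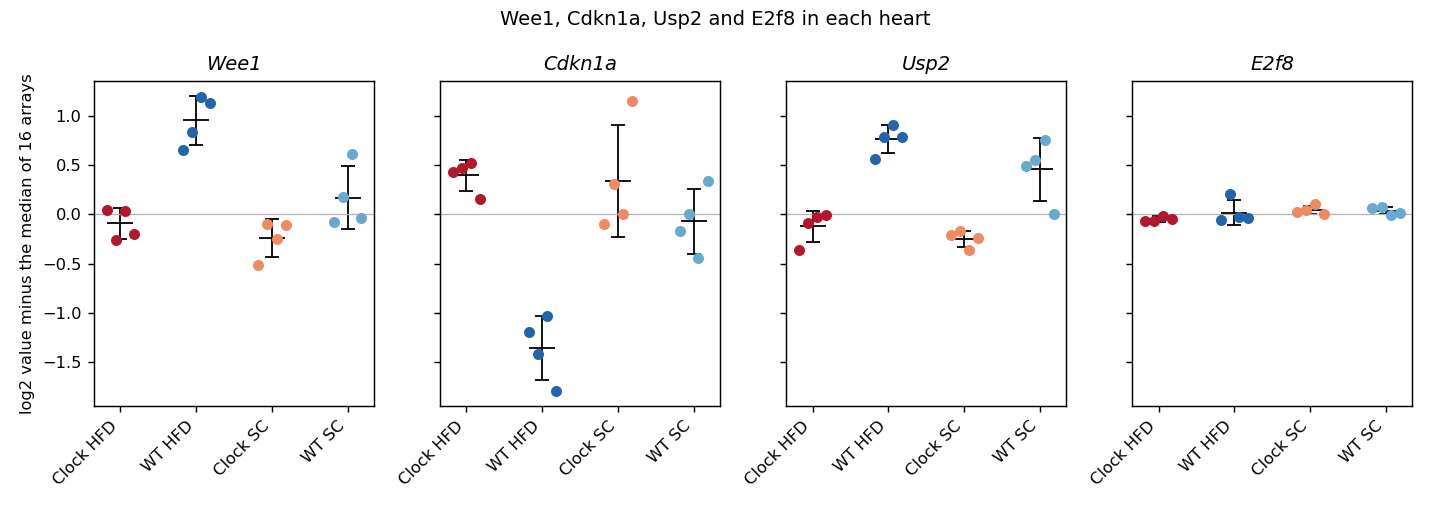
Log2 values of Wee1, Cdkn1a, Usp2 and E2f8, each minus its median over 16 arrays, with 1 point per heart in the order of replicate number and the mean ± SD of 4 hearts in black. WT HFD hearts are the highest for Wee1 (0.66 to 1.20) and the lowest for Cdkn1a (-1.80 to -1.04), both genotypes separate for Usp2, and E2f8 stays between -0.07 and 0.21.

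Counted over the 4 genes, 3 had Clock HFD hearts that did not overlap the WT HFD hearts, where 8.89% of all genes did so. Of these, Wee1 and Usp2 were lower (3.80% of all genes) and Cdkn1a was higher (5.09%). On chow the genotypes did not overlap for Wee1 and Usp2, against 4.95% of all genes, and both were lower (2.38%). Between diets in WT hearts, against 5.30% of all genes, Wee1 was higher without overlap (2.80%) and Cdkn1a lower (2.50%). In Clock hearts, against 5.31% of all genes, E2f8 alone did not overlap between diets and was lower (2.42%). The genes were chosen with these comparisons known, so the counts say nothing on how unusual they are. Comparisons that share a group share its hearts: the large values of Wee1 and Cdkn1a between genotypes on HFD and between diets in WT mice rest on the same 4 WT HFD hearts. For the difference of differences, none of the 22180 genes passed adjusted p under 0.05 by limma, and 5.06% had an unadjusted p under 0.05.

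**Figure D2:**
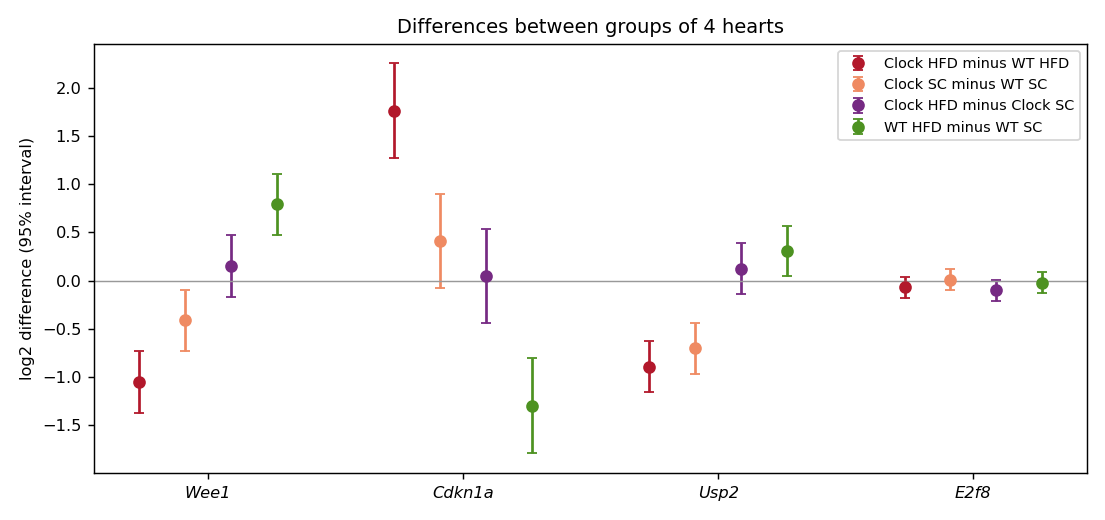
Log2 differences of the 4 genes in 4 comparisons, first-named group minus second, with points for the difference of 2 means of 4 hearts and bars for the 95% interval of the limma fit. Wee1 and Cdkn1a have their widest values on HFD between genotypes (-1.05 and 1.76) and in WT mice between diets (0.79 and -1.30), Usp2 has like values on both diets (-0.89 and -0.70), and all intervals of E2f8 span 0.

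Among all other genes, those with the profile closest to Usp2 over the 16 hearts were Dbp (Pearson r = 0.979, Spearman rho = 0.912), the period gene Per3 (r = 0.973, rho = 0.950) and the carboxylesterase gene Ces1d (r = 0.969, rho = 0.888). These are the highest of many correlations and mostly follow the group means, so no p is given. With the group means taken out, r was 0.898 for Dbp, 0.865 for Per3 and 0.883 for Ces1d. These genes were picked for their r over the same hearts, so the within-group values are no separate evidence. For Dbp, WT SC replicate 4 was the lowest of its group in both (Dbp 0.37, Usp2 0.01), and r without this heart was not computed. Not every group followed: in Clock HFD hearts replicate 4 had the most Usp2 (-0.01) and a Dbp of -0.52, tied for the lowest. Ddah1, which encodes an enzyme that degrades inhibitors of nitric oxide synthase, was the most opposed (r = -0.917, rho = -0.844, and -0.368 within groups).

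Closest to Wee1 were Hdac4, a class II histone deacetylase gene (r = 0.936, rho = 0.826), Gpcpd1, a glycerophosphodiesterase gene (r = 0.920, rho = 0.809), and the cytokine gene Il15 (r = 0.916, rho = 0.874), with 0.658, 0.785 and 0.610 within groups. Arntl was the most opposed (r = -0.952, rho = -0.824, and -0.705 within groups). Like Wee1, Arntl had its widest differences on HFD between genotypes (1.92 ± 0.26) and in WT hearts between diets (-1.43 ± 0.26), while its chow genotype difference was 0.72 ± 0.26. Arntl was picked for its r with Wee1 over the same hearts, so this likeness is no separate evidence.

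Among the genes closest to Cdkn1a were the endothelial tight junction gene Cldn5 (r = 0.901, rho = 0.838) and Rcan1, a calcineurin inhibitor gene (r = 0.885, rho = 0.797). Within groups their r was 0.482 and 0.525. Rufy1, an endosomal effector gene, was the most opposed (r = -0.891, rho = -0.879, and -0.519 within groups). Between genotypes on HFD, endothelial markers differed in the direction of Cdkn1a: 9 of 10 were above 0 and 3 were higher in Clock HFD than in WT HFD hearts at adjusted p under 0.05 (1.13% of all genes were). The mean of the list lay between -0.03 and 0.16 in Clock HFD hearts, against -0.27 to -0.17 in WT HFD hearts. The 3 were Cldn5 (1.21 ± 0.17, adjusted p = 0.000890), Esam (0.39 ± 0.07, adjusted p = 0.00707) and Egfl7 (0.29 ± 0.06, adjusted p = 0.0189). At unadjusted p under 0.05 there were 8 of the 10 (13.5% of all genes). Cldn5 was named above for its r with Cdkn1a over the same hearts, so its direction is no separate evidence. The list mean without Cldn5 was not computed. Single hearts did not all follow. Clock HFD replicate 4 had the highest list mean of its group (0.16) and the lowest Cdkn1a (0.16). WT HFD replicate 3 had the lowest list mean (-0.27) and the highest Cdkn1a (-1.04). In Clock SC hearts replicate 1 was lowest in both (0.06 and -0.10). On chow none of the 10 passed and 6 had an unadjusted p under 0.05 (9.77% of all genes), and the list mean lay between 0.06 and 0.19 in Clock hearts, against -0.05 to 0.03 in WT hearts. Between diets in WT hearts Cldn5 fell (-0.81 ± 0.17, adjusted p = 0.0482), the only one of the 10 that passed there (0.167% of all genes fell). None of the 10 was above 0 in that comparison, with a list median of -0.09 and 4 at unadjusted p under 0.05 (10.7% of all genes). The median difference of the list on HFD was 0.23, beside 1.76 for Cdkn1a, -1.05 for Wee1 and -0.89 for Usp2, and the part of these cells in the 3 differences was not tested.

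Fibroblast markers lay higher in Clock than in WT hearts on chow without passing the test, in a comparison where Wee1 and Usp2 were lower without overlap. All 10 were above 0 there in Clock minus WT hearts with a median of 0.26, 6 had an unadjusted p under 0.05 (9.77% of all genes did) and none passed the adjusted threshold (smallest adjusted p = 0.101). The mean of the list lay between -0.01 and 0.08 in Clock SC hearts, against -0.24 to -0.09 in WT SC hearts. Between diets in WT hearts all 10 were again above 0, with a median of 0.16 and 4 at unadjusted p under 0.05 (10.7% of all genes), and the list mean lay between -0.19 and 0.16 in WT HFD hearts, against those same WT SC hearts. Between genotypes on HFD 9 of the 10 were above 0 in Clock minus WT hearts, with a median of 0.09. There 3 had an unadjusted p under 0.05 (13.5% of all genes) and none passed (smallest adjusted p = 0.115). The part of fibroblasts in the differences of Wee1, Cdkn1a and Usp2 was not tested. The lists of smooth muscle cells and pericytes, macrophages, lymphocytes, neutrophils and red blood cells had no gene that passed in any of the comparisons. At unadjusted p under 0.05 they had 0 to 3 genes each, beside 5.06% to 13.5% of all genes. The 3 were among the 10 smooth muscle and pericyte genes, between genotypes on chow (9.77% of all genes). Of 9 adipocyte markers 1 passed, Pparg, which was higher in Clock HFD than in WT HFD hearts (0.31 ± 0.07, adjusted p = 0.0377), as were 1.13% of all genes.

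For E2f8 the closest genes were Tceal3 (r = 0.806, rho = 0.665), C1qtnf12, which encodes the secreted protein adipolin (r = 0.800, rho = 0.765), and Gdf11, a gene of the TGF-beta family (r = 0.799, rho = 0.697). Nek2, a centrosomal kinase gene, was the most opposed (r = -0.784, rho = -0.685). Over so narrow a range these values describe small differences, and Dbp had r = 0.183 with E2f8.

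**Figure D3:**
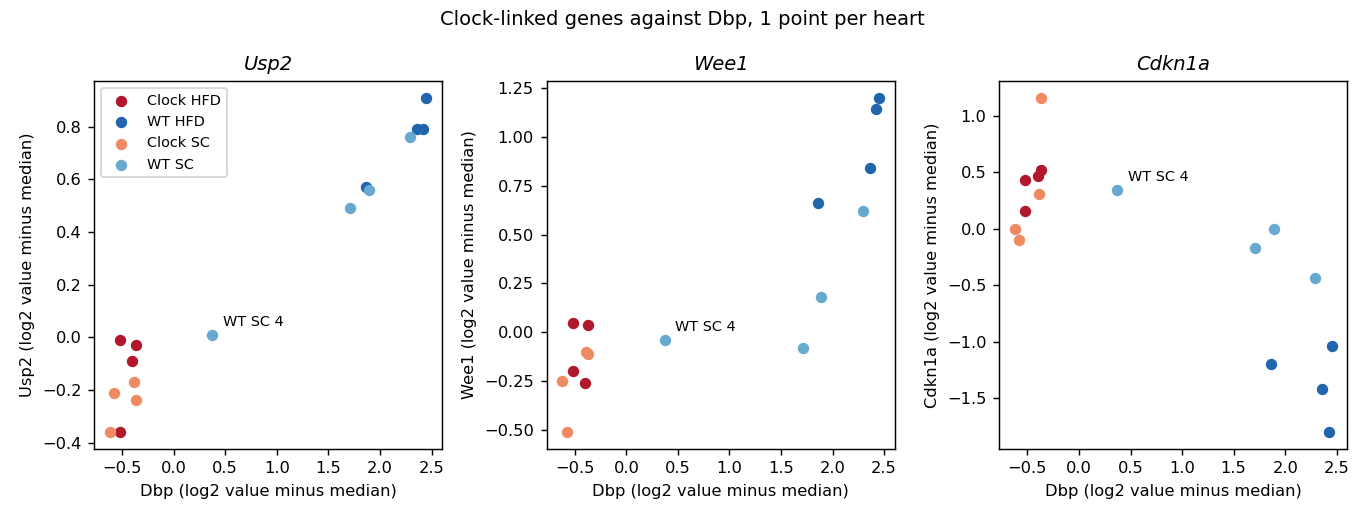
Usp2, Wee1 and Cdkn1a against Dbp, both as log2 values minus the median of 16 arrays, with 1 point per heart coloured by group. Usp2 follows Dbp from the Clock hearts through WT SC replicate 4 (Dbp 0.37, Usp2 0.01) to the WT hearts, while the WT HFD hearts lie beyond WT SC hearts of like Dbp by at least 0.04 for Wee1 and 0.59 for Cdkn1a.

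Within the WT chow group the same hearts stood at the ends for these genes. Replicate 3 had the highest Dbp (2.29), Usp2 (0.76) and Wee1 (0.62) and the lowest Cdkn1a (-0.44) of the 4, and replicate 4 had the lowest Dbp (0.37) and Usp2 (0.01) and the highest Cdkn1a (0.34), with Wee1 at -0.04 next to the lowest, -0.08. The mean of the 12 E-box clock genes was likewise highest in replicate 3 (0.84) and lowest in replicate 4 (-0.02), and that of the 5 RORE clock genes was lowest in replicate 3 (-0.45) and highest in replicate 4 (0.26). The WT HFD group differed for Cdkn1a. There the heart with the highest Dbp (2.45), Usp2 (0.91) and Wee1 (1.20), replicate 3, also had the highest Cdkn1a of the group (-1.04). Over all 16 hearts, with group means taken out, none of the 6 pairs of the 4 genes passed a test of relation. The strongest was Wee1 with Usp2 (r = 0.499, rho = 0.391, two-sided exact permutation within groups p = 0.160 and 0.194, Benjamini-Hochberg adjusted over 6 pairs 0.619 and 0.835), with the deviations of the same sign in 10 of 16 hearts. It rested on 2 hearts, since r was 0.0713 without WT SC replicate 3 and WT HFD replicate 1. Cdkn1a with Usp2 had r = -0.320 and rho = -0.265 (exact permutation p = 0.206 and 0.344, adjusted 0.619 and 0.835), and Wee1 with Cdkn1a had r = -0.0114 and rho = -0.0412 (exact permutation p = 0.970 and 0.896, adjusted 0.970 and 0.896), with r = 0.419 without the same 2 hearts. The 3 pairs with E2f8 had r between -0.212 and 0.0803.

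In the Clock chow group the heart with the most Cdkn1a, replicate 4 at 1.16, also had the highest mean of the 15 glucocorticoid and FOXO responsive genes (0.34). The other three Clock chow hearts had means of -0.33, -0.08 and -0.13 beside Cdkn1a values of -0.10, 0.31 and 0.00. This heart had the lowest of the 16 array weights, limma's estimate of array quality (0.656, where 1 is average). The mean of that list was 0.21, 0.13, 0.22 and 0.05 in Clock HFD hearts, against -0.11, -0.05, 0.11 and -0.05 in WT HFD hearts, where Cdkn1a was lowest. In WT chow hearts replicate 4, with the highest Cdkn1a (0.34), had the lowest mean of the list (-0.18, where the other three had 0.03, 0.13 and 0.02). The part of these genes in the Cdkn1a values was not tested.

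No neighbouring gene of the cell cycle passed the test. In 5 lists that hold the mitotic entry switch around Wee1, the CDK inhibitors with the G1 cyclins and RB proteins, p53 targets, the E2F and DP family, and replication and proliferation genes, 73 genes were measured besides the 4. None of the 73 passed adjusted p under 0.05 between genotypes on HFD (1.90% of all genes did), between genotypes on chow (0.491%), between diets in Clock hearts (0.0902%) or between diets in WT hearts (0.352%), by limma over 22180 genes. At unadjusted p under 0.05 there were 14, 11, 9 and 9 of them, or 19.2%, 15.1%, 12.3% and 12.3%, where all genes gave 13.5%, 9.77%, 8.42% and 10.7%. On HFD their genotype differences ran from -0.26 to 0.64, all smaller in size than that of Wee1. Elsewhere 72 of the 73 were smaller than Wee1 between genotypes on chow, 64 between diets in Clock hearts and 73 between diets in WT hearts. Wee1 was chosen with these comparisons known, so its place among these genes does not show how unusual it is.

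By role, the checkpoint kinase gene Chek2 had the smallest p among 11 mitotic entry genes (0.30 ± 0.09 in Clock HFD over WT HFD hearts, adjusted p = 0.120, list median -0.04). Ccnd2, which encodes cyclin D2, had it among 16 genes of the G1 list (-0.25 ± 0.08 on HFD, adjusted p = 0.140, list median -0.04). Of 18 p53 targets the death receptor gene Tnfrsf10b had it (0.64 ± 0.20 on HFD, adjusted p = 0.144), and the list median was 0.06 beside the 1.76 of Cdkn1a. Among 9 genes of the E2F and DP family it was Tfdp2, a dimer partner of the E2Fs, between diets in Clock hearts (0.24 ± 0.05, adjusted p = 0.110), and among 20 replication and proliferation genes it was the helicase gene Mcm6, between diets in WT hearts (0.20 ± 0.06, adjusted p = 0.184). The median of all genes was 0.00 in each comparison. Among the 18 p53 targets 5 had an unadjusted p under 0.05 between genotypes on HFD (13.5% of all genes). Tnfrsf10b, Btg2 and Plk3 had 0.64, 0.49 and 0.39 there and -0.74, -0.67 and -0.46 between diets in WT hearts, in the directions of Cdkn1a. In that diet comparison 13 of the 18 were above 0, with a list median of 0.05 and 4 at unadjusted p under 0.05 (10.7%). The part of p53 in the Cdkn1a values was not tested.

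Of 38 other ubiquitin-specific protease genes, Usp36 rose (0.33 ± 0.06, adjusted p = 0.00960) and Usp11 fell (-0.34 ± 0.07, adjusted p = 0.0218) in Clock HFD against WT HFD hearts, where 1.13% of all genes rose and 0.771% fell. The other 36 did not pass, and 7 of the 38 had an unadjusted p under 0.05 (13.5% of all genes). Their median difference was 0.04, beside -0.89 for Usp2. None of the 38 passed elsewhere, with 4 at unadjusted p under 0.05 between genotypes on chow (9.77% of all genes), 3 between diets in Clock hearts (8.42%) and 10 in WT hearts (10.7%). None of 9 genes that degrade clock or muscle proteins passed in any comparison, and the muscle ubiquitin ligase gene Trim63 had the smallest p (0.30 ± 0.12, adjusted p = 0.239). Between genotypes or diets 1 or 2 of the 9 had an unadjusted p under 0.05, beside 8.42% to 13.5% of all genes.

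A larger share of the clock genes passed. Of 12 genes driven through E-boxes, Dbp among them, 9 fell on HFD (0.771% of all genes did) and 4 on chow (0.252%) in Clock hearts, with medians of -0.76 and -0.55. Nr1d2, a REV-ERB gene, fell by 1.45 ± 0.16 on HFD (adjusted p = 7.86e-05) and by 1.13 ± 0.16 on chow (adjusted p = 0.00225), where Usp2 had -0.89 and -0.70. Ciart, a repressor of CLOCK and BMAL1, fell by 1.35 ± 0.25 on HFD (adjusted p = 0.00892). Nr1d1, the other REV-ERB gene, fell by 1.04 ± 0.11 on HFD (adjusted p = 7.13e-05) and by 1.04 ± 0.11 on chow (adjusted p = 0.000145). Of 5 RORE genes 3 rose on HFD (1.13% of all genes did), Arntl (adjusted p = 0.000746), Nfil3 (0.64 ± 0.13, adjusted p = 0.0176) and Clock, and Rora fell (-0.34 ± 0.05, adjusted p = 0.00134). On chow none of the 5 passed and 3 had unadjusted p under 0.05 (9.77% of all genes). Between diets in WT hearts Arntl fell (-1.43 ± 0.26, adjusted p = 0.0245), the only one of these clock genes that passed there (0.167% of all genes fell). At unadjusted p under 0.05 there were 7 of the 12 E-box genes (list median 0.27) and 4 of the 5 RORE genes (list median -0.32). Of all genes, 10.7% had such a p in that comparison.

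Of the 15 glucocorticoid and FOXO responsive genes, Ddit4, an inhibitor of mTOR signalling, rose in Clock hearts on HFD (0.89 ± 0.12, adjusted p = 0.000684) and on chow (0.55 ± 0.12, adjusted p = 0.0478). Of all genes, 1.13% rose on HFD and 0.239% on chow. Between diets none of the 15 passed, with 5 at unadjusted p under 0.05 in Clock hearts (8.42% of all genes) and 9 in WT hearts (10.7% of all genes). Of 20 immediate early genes Egr2 rose (0.47 ± 0.09, adjusted p = 0.0140) and Ier3 fell (-0.64 ± 0.11, adjusted p = 0.00539) in Clock HFD against WT HFD hearts, where 1.13% of all genes rose and 0.771% fell. There 19 of the 20 were above 0, with a list median of 0.31 and 5 at unadjusted p under 0.05 (13.5% of all genes). Between diets in WT hearts Egr2 fell (-0.49 ± 0.09, adjusted p = 0.0341, 0.167% of all genes fell). There 2 of the 20 were above 0, with a list median of -0.30 and 7 at unadjusted p under 0.05 (10.7% of all genes). The mean of the early gene list was -0.46, 0.14, 0.37 and -0.23 in Clock HFD hearts, against -0.54, -0.29, 0.04 and -0.68 in WT HFD hearts. The WT HFD heart with the lowest early gene mean, replicate 4, also had the lowest Cdkn1a (-1.80), and replicate 3, with the highest mean, had the highest Cdkn1a of that group (-1.04). Other groups differed in this: in Clock HFD hearts replicate 1, with the lowest early gene mean, had Cdkn1a at 0.43 and not the lowest, and in WT chow hearts replicate 4, with the lowest mean (-0.12), had the highest Cdkn1a (0.34). The part of these genes in the Cdkn1a difference was not tested.

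**Figure D4:**
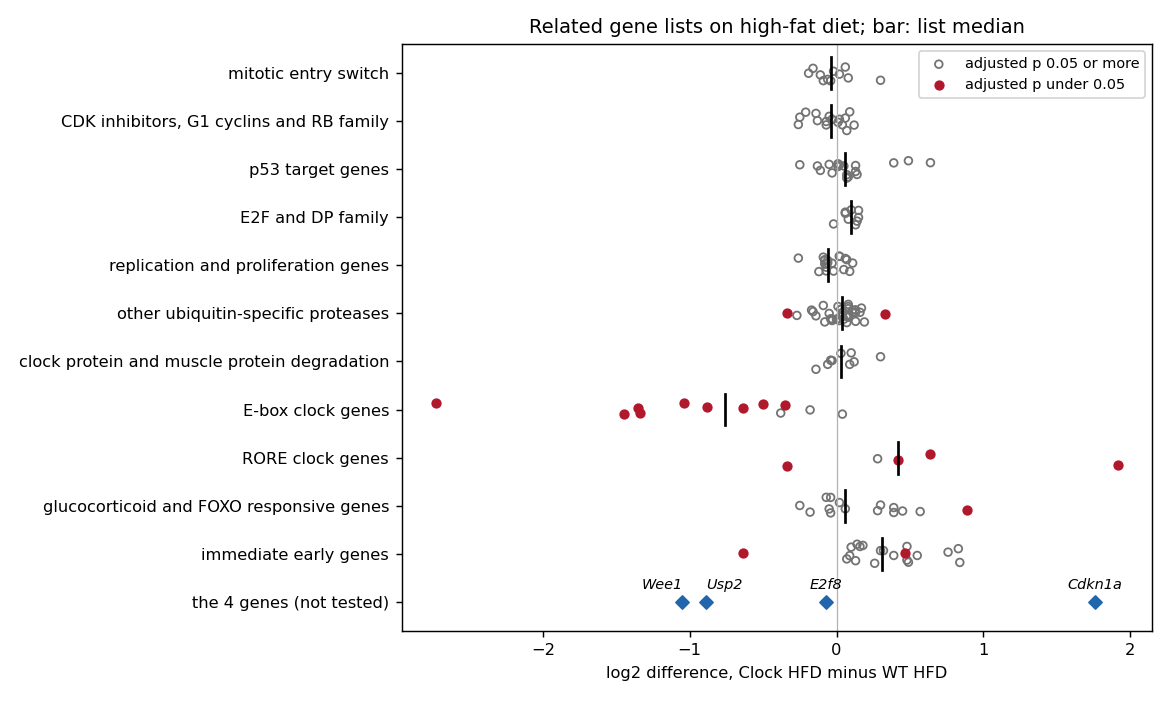
Log2 differences, Clock HFD minus WT HFD, of each gene in 11 related lists, with filled points at adjusted p under 0.05, open points for the others and a bar at each list's median. The cell cycle lists have medians between -0.06 and 0.10 with no filled point, the E-box clock genes have a median of -0.76, and the diamonds show Wee1 (-1.05), Usp2 (-0.89), E2f8 (-0.07) and Cdkn1a (1.76), which were not tested.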

How the data were processed

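RNA of 16 hearts (500 ng each) was read on 1 Affymetrix array per heart. The deposited values are on a log scale, taken as log2, and were centred by the authors, since the median of each of the 34351 probe sets is 0 within 1e-06. The sources used here do not state the software, background correction or normalization. The number of arrays limits the precision, and array SDs lay between 0.111 and 0.159.

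Probe sets with 1 gene symbol in the platform annotation (23521) were averaged per gene. The 1814 with several symbols and the 9016 without one entered 1 alternative only. Gene IDs were checked against RefSeq, which changed 0 symbols. All 22180 genes were fitted with limma 3.58.1 in R 4.3.3 (group means, 12 residual degrees of freedom plus 4.16 from the prior, two-sided, Benjamini-Hochberg over all genes, threshold 0.05), and the fit was tested on simulated data. Errors after ± are SEs of the fit unless called SD. Replicates are separate mice per the labels. Figures and permutation tests used Python 3.11.15, scipy 1.17.1 and matplotlib 3.10.9.

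The 4 genes, the 11 gene lists and the 9 marker lists (254 of 271 entries measured) were chosen with earlier results of these data known. The genes named were the 4, Clock and Dbp, for each of the 4 the 3 genes with the highest and the 1 with the lowest Pearson r (without predicted genes), up to 3 passing members per list and comparison with the largest difference, and for a list with none the gene with the smallest p. For Cdkn1a, 1 of the 3 genes with the highest r is not reported here. Rora, Pparg, Btg2, Plk3, the endothelial markers and the list means were named after their values were seen. Alternatives were the highest-mean probe set, all probe sets, moderation with trend and robust, weighting of arrays, quantile normalization run again, the 8 arrays compared alone, the replicate number as a block, and each array left out.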

Additional observations from a re-analysis of the deposited data

Results flagged for a closer look

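Among the 24 sets of 4 hearts examined for the 4 genes, Clock and Dbp, 2 held a heart far from the other three, where chance gives about 1 in 20. For E2f8 it was WT HFD replicate 2 at 0.21, the highest of its group. For Dbp it was WT HFD replicate 1 at 1.86, the lowest of its group, which remained above every Clock heart.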

How the results depend on the processing

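The differences of the 4 genes were recomputed 328 times under other settings. They moved by less than 1 SD between arrays in 325 cases, and 0 of those larger than 2 SE changed sign. The 3 that moved were those of Cdkn1a under the repeated quantile normalization. They were 1.41 on HFD between genotypes, -0.876 between diets in WT hearts and 0.940 for the genotype difference on HFD minus that on chow. Many of the other cases were no real check. Each gene had 1 probe set, so the choice of probe sets could not change its differences. Nor could moderation with trend and robust, the compared arrays fitted alone or the replicate block, which leave the group means as they are. Leaving out 1 array shifts a group mean by only part of that array's deviation. Array weights and the repeated quantile normalization had more room to move a difference. Leaving out 1 array gave, for Clock minus WT on HFD, -1.15 to -0.970 for Wee1, 1.61 to 1.87 for Cdkn1a, -0.958 to -0.812 for Usp2 and -0.0963 to -0.00593 for E2f8. On chow it gave -0.495 to -0.262, 0.137 to 0.558, -0.852 to -0.602 and -0.00797 to 0.0247 in the same gene order.

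Counts over all genes depended more on the setting. Clock against WT called 422 genes on HFD (241 to 344 without 1 array, the lowest without Clock HFD replicate 2) and 109 on chow (49 to 144 without 1 array, the lowest without Clock SC replicate 1 or WT SC replicate 2, 59 with trend and robust, 38 from the 8 arrays alone). HFD against chow called 20 in Clock hearts (6 to 14 without 1 array, the lowest without Clock HFD replicate 3, 8 with trend and robust, 7 from the 8 arrays alone, 53 with array weights, 43 with the repeated quantile normalization). In WT hearts it called 78 (28 to 65 without 1 array, the lowest without WT HFD replicate 4, 40 with trend and robust, 15 from the 8 arrays alone). With the replicate block these became 345, 85, 12 and 41. The block left the differences of the 4 genes as they were, which it must when each number occurs once per group. The causes were not tested. The interaction called 0 genes in each setting run. The 6 within-group relations stayed above p of 0.05 in the settings with a test. Same-numbered hearts of different groups did not deviate together over all genes (24 pairs, r between -0.149 and 0.163, median -0.0202, with 3 over 0.1). This gave no sign of a pairing by number, but it cannot show whether hearts shared a batch. A filter on dim genes needs levels, which centring removed, so it was not run, and signal over background is unknown.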
